A study of Mus musculus with 22 samples.

Results

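The genes Epx, Prg2 and Prg3 encode the peroxidase and the basic proteins of the eosinophil granule, and they were read from their own rows in the count files of all 22 libraries. They are 3 of the 24982 genes listed. They were chosen by name, with earlier results of these data known.

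The libraries hold RNA of bone marrow eosinophils sorted into 4 maturation stages, from stage I (the earliest) to stage IV, from wild type C57BL6 mice. Every mouse had received recombinant murine IL-33, a cytokine used here to drive eosinophilia, as 400 ng into the peritoneal cavity on each of 7 days. The groups differ in the antibody given over 3 daily injections of 400 µg that began with the final IL-33 dose: anti-IL5, which neutralises the main growth and survival factor of eosinophils, or a control isotype antibody. There were thus 8 groups with 3 libraries each, or 2 at stage II, and no group without IL-33, so every value below is a value during IL-33 eosinophilia. The age of the mice is not given in the labels. Cells bearing CD45R, NK1.1, CD90.2 or Ly6G were removed from the marrow before sorting. Surface CD117, CD55, CD29, CD200R3, PIR-A/B, F4/80 and Siglec-F served as gates for the stages. The labels do not say whether libraries of a group, or libraries that share a replicate number, came from separate animals, so each p-value measures only the spread between these samples, which may be technical.

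Eosinophils make most of their granule protein while they mature in the marrow and store it for release at sites of parasite infection or allergy. Epx, the eosinophil peroxidase, is a haem enzyme of the granule matrix that oxidises halides and thiocyanate to toxic products. Prg2, the major basic protein, is a highly cationic lectin-like protein that forms the crystalline core of the granule, and Prg3 is its close relative, the major basic protein homologue. All are made as precursors that enter the endoplasmic reticulum, and Prg2 is stored with an acidic pro-piece removed.

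Libraries held 7161264 to 14781250 gene counts, and the 3 genes together took between 0.0278% and 5.87% of them. Levels are given as CPM, counts scaled to a common library size, on library sizes scaled with TMM, a method that balances the bulk of genes between libraries. The smallest of the 66 counts behind the values of the 3 genes was 321, so counting error is small beside the spread between libraries. Of the eosinophil markers listed, all 8 other than Epx and Prg2 were seen in each of the 8 groups, the IL-5 receptor chain gene Il5ra and the eotaxin receptor gene Ccr3 among them. Ccr3 stood at 4.89 ± 2.19 CPM (SD, n = 3) at stage I and 2718 ± 133 CPM (SD, n = 3) at stage IV under isotype. In libraries of sorted cells, fewer cells of a type and less RNA of a gene per cell cannot be told apart.

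In the GENCODE M21 annotation of GRCm38 (mm10), Epx lies at chr11:87864000-87875536 on the minus strand and has 2737 bases of exon. Prg2 lies at chr2:84980461-84983632 and Prg3 at chr2:84988215-84993886, both on the plus strand, with 838 and 949 bases of exon. Prg2 and Prg3 share 65.4% of their aligned coding bases, and their longest common run is 23 bases. Epx shares 71.5% with the myeloperoxidase gene Mpo, with a longest common run of 26 bases. None of the 31-base words of the 3 genes' transcripts (0 of 2706, 0 of 808 and 0 of 973) occurred in a transcript of another GENCODE gene, so reads that span such a word belong to 1 gene. No other GENCODE gene overlaps them. RefSeq places a long noncoding RNA gene, Gm39868, at chr2:84983713-84991979, across part of Prg3; it has no row in the count files, and without strand its reads in Prg3 exons could not be told from those of Prg3.

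The 250 bases upstream of the start of Epx and of Prg3 are printed because these genes fall together across the stages and because GATA factors are known regulators of eosinophil genes. The sequences are those of RefSeq for GRCm38.p6, which matched 2 of the 3 genes, each read 5′ to 3′ on the strand of its gene. Capitals mark every match, on either strand, to GATAA (the core bound by GATA factors) and to TATAA (the TATA box). The Epx sequence is chr11:87875537-87875786 and the Prg3 sequence is chr2:84987965-84988214.
Epx: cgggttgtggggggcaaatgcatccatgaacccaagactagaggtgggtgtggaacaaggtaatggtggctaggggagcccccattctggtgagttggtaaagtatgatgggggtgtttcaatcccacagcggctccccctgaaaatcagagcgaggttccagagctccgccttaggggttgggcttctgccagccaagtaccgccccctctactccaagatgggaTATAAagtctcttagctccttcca
Prg3: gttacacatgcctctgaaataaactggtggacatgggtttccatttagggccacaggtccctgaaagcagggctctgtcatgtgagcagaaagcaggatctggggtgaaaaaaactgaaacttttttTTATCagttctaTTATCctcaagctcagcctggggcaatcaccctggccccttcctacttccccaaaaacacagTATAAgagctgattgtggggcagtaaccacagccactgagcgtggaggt
Each sequence holds 1 TATAA, which starts 24 bases before the start site in Epx and 49 bases before it in Prg3. All Prg3 positions here are counted from a start site at chr2:84988215. The RefSeq gene coordinates start Prg3 at chr2:84988196, inside the printed stretch. Prg3 holds 2 GATAA matches, both on the minus strand (printed as TTATC), at positions -123 and -111 from the start site, and Epx holds 0. The motif TTGCNNAA, bound by C/EBP factors, had 0 matches in both, and GGAA, the core of Ets factor sites, had 3 in each. Among the 32851 promoter sequences of this length in the RefSeq table, 22.6% held GATAA, 22.8% held TATAA, 9.56% held TTGCNNAA and 93.4% held GGAA. A match is a description of the letters and not a site, and no overlap between motifs was removed.

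Epx was abundant from stage I to stage III and fell at stage IV, and at stages III and IV it was lower under anti-IL5. Under isotype its level was 20496, 23225 and 23575 CPM in the 3 stage I libraries (replicates 1, 2 and 3), 24363 and 18317 CPM in the 2 stage II libraries, and 14241, 12045 and 15318 CPM at stage III. At stage IV it was 583, 208 and 375 CPM. Stages I and II overlapped under isotype, whereas each stage III library lay below all earlier ones and each stage IV library far below stage III. Under anti-IL5 Epx stood at 19537, 16011 and 19397 CPM at stage I, at 15679.8 and 11239 CPM at stage II, and at 5369, 5640.4 and 3079.6 CPM at stage III. At stage IV the level was 86.9, 53.3 and 28.8 CPM. In every stage the highest anti-IL5 library lay below the lowest isotype library for this gene.

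Under isotype Prg2 stood between 13085 and 24824 CPM in the libraries of stages I to III, and it fell at stage IV, where it was lower under anti-IL5. Under isotype the 3 stage I libraries had 14122, 16902.5 and 16915 CPM, the 2 stage II libraries 24824 and 17672 CPM, and the 3 stage III libraries 16975, 13085 and 18114 CPM. At stage IV it read 2015, 1197 and 2154 CPM. Stages I and III overlapped, and stage II isotype replicate 1 held the highest isotype value. Under anti-IL5 Prg2 read 21221, 16924 and 17499 CPM at stage I, 21100.4 and 16871 CPM at stage II, and 12082, 11008.5 and 9185 CPM at stage III. The stage IV libraries had 702, 409 and 246 CPM. At stage I each anti-IL5 library lay above every isotype library, at stage II the groups overlapped, and at stages III and IV each anti-IL5 library lay below every isotype library.

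Prg3 had a lower CPM than Epx and Prg2 at stages I to III and also fell at stage IV. Under isotype it had 5315, 6142 and 6244 CPM at stage I, 8303 and 5547 CPM at stage II, and 3569, 3136 and 4689 CPM at stage III. The stage IV libraries stood at 138, 96.2 and 108 CPM. Under anti-IL5 Prg3 had 6671, 5999 and 6195 CPM at stage I, 5871 and 4498 CPM at stage II, and 1956, 1755 and 1216 CPM at stage III. At stage IV it had 85.5, 37.0 and 38.7 CPM. The antibody groups overlapped at stages I and II and did not overlap at stages III and IV, where anti-IL5 was the lower group.

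**Figure D1:**
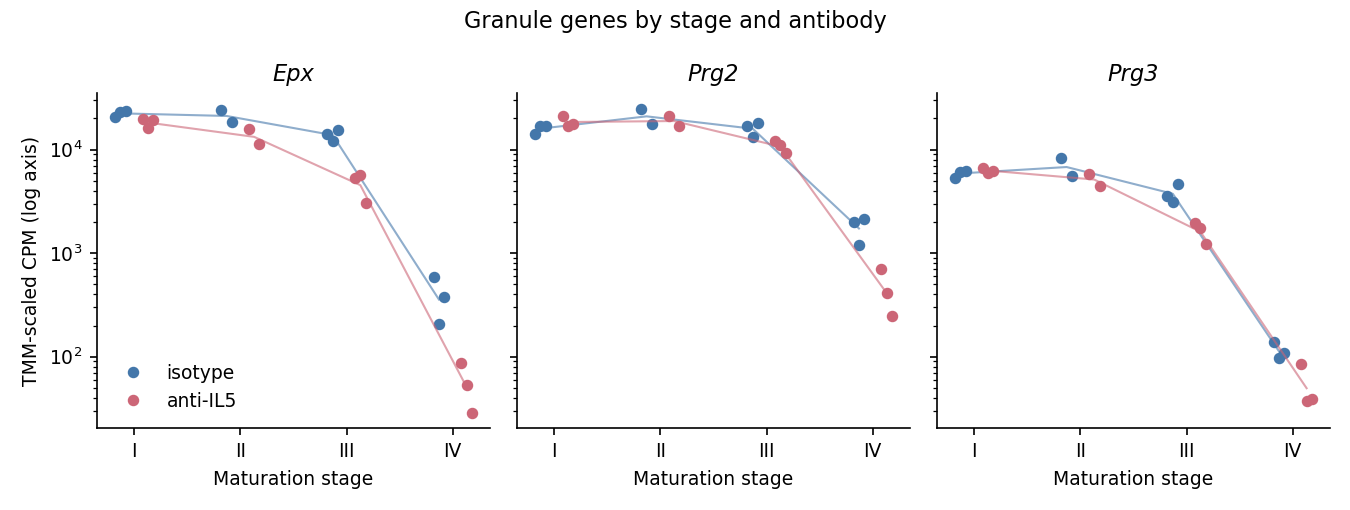
Levels of Epx, Prg2 and Prg3 in each of the 22 libraries by stage, in CPM on a log axis, with points for libraries (isotype and anti-IL5) and lines through the geometric means of the groups. All 3 genes sit above 1000 CPM from stage I to stage III and drop at stage IV, to 28.8 CPM in the lowest anti-IL5 library for Epx.

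Levels of different genes are compared per kilobase of exon. On that scale Prg2 stood first among all genes with a known length in every group of stages I to III, with 19069 ± 1920 CPM per kb (SD, n = 3) at stage I under isotype. Epx ranked 2 and Prg3 ranked 3 there, at 8196 ± 616 and 6218 ± 537 CPM per kb (SD, n = 3). At stage IV under isotype Prg2 still ranked 8 (2135 ± 617 CPM per kb, SD, n = 3), whereas Epx ranked 415 (142 ± 68.7) and Prg3 ranked 522 (120 ± 22.9), and the levels of these last genes overlapped. Under anti-IL5 the ranks at stage IV were 75 for Prg2 (539 ± 276 CPM per kb), 1163 for Prg3 (56.6 ± 29.0) and 2861 for Epx (20.6 ± 10.7). Per kb, Epx lay above Prg3 in every isotype library of stages I to III and in 2 of 3 at stage IV. Under anti-IL5 it lay above Prg3 in 2 of 3 libraries at stage I and in 0 of 2 at stage II, where the means were 4918 ± 1147 and 5463 ± 1023 CPM per kb (SD, n = 2). It lay above Prg3 in 1 of 3 at stage III (1716 ± 514 against 1730 ± 403 CPM per kb, SD, n = 3) and in 0 of 3 at stage IV.

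The question of the maturation steps is when, within each antibody group, the transcripts fall. From stage I to stage II, 0 of the 3 genes passed the test in either group (edgeR quasi-likelihood test with Benjamini-Hochberg adjustment over all 12387 genes tested, threshold 0.05). None had an unadjusted p under 0.05 (0 of 3), and DESeq2 and limma-voom called 0 as well, while 10.6% of all genes were called in that step under isotype and 12.4% under anti-IL5. From stage II to stage III under isotype, where 18% of genes were called lower, 1 of the 3 was: Prg3 fell by 0.87 ± 0.29 on the log2 scale (SE, edgeR adjusted p = 0.0213). That call was lost without stage II isotype replicate 1 (adjusted p = 0.287) and without stage III isotype replicate 1 (0.0629) or 2 (0.0851). Epx and Prg2 had log2 changes of -0.62 ± 0.36 (adjusted p = 0.188) and -0.40 ± 0.31 (0.320) in that step.

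Under anti-IL5 all 3 genes fell already from stage II to stage III, where 19.7% of all genes were called lower. Epx fell by 1.52 ± 0.36 (edgeR adjusted p = 0.00193), Prg3 by 1.66 ± 0.29 (9.47e-05) and Prg2 by 0.82 ± 0.30 (0.0370) on the log2 scale. The Prg2 call was lost without stage II anti-IL5 replicate 1 (adjusted p = 0.218) or without stage III anti-IL5 replicate 2 (0.0714) or 3 (0.116). Whether this step differed between the antibody groups is the test of stage III minus stage II effects below, which 0 of the 3 genes passed, beside 0% of all genes.

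The step from stage III to stage IV was the steepest for every one of the 3 genes in both groups. Under isotype all 3 fell, beside 18.8% of all genes called lower: Epx 35.7-fold, Prg3 33.3-fold and Prg2 8.98-fold (edgeR adjusted p = 1.83e-09, 7.56e-11 and 4.19e-08). Under anti-IL5, with 13.4% of genes called lower, the falls were 83.6-fold for Epx, 30.7-fold for Prg3 and 23.8-fold for Prg2 (4.68e-10, 2.83e-10 and 1.57e-09). From stage I to stage IV as a whole, where 33.9% and 32.8% of genes were called lower in the isotype and anti-IL5 groups, Epx fell 57.7-fold and 326-fold, Prg3 51.8-fold and 117-fold, and Prg2 8.93-fold and 41.0-fold. These calls held in every fit that left out 1 library. The 3 genes together went from 5.23% ± 0.264 of gene counts at stage I to 0.203% ± 0.0599 at stage IV under isotype, and from 5.06% ± 0.388 to 0.0489% ± 0.0236 under anti-IL5 (SD, n = 3).

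The antibody comparison asks what neutralising IL-5 changed within a sorted stage. At stage I, 0 of the 3 genes passed the test, and at stage II again 0, by edgeR, DESeq2 and limma-voom alike and also at an unadjusted p under 0.05. Of all genes, 4.42% were called at stage I and 1.75% at stage II. The 95% intervals of the log2 difference at stage I ran from -0.97 to 0.39 for Epx, from -0.36 to 0.79 for Prg2 and from -0.45 to 0.63 for Prg3. Changes within these intervals were not excluded. At stage II, with 2 libraries a group, they ran from -1.50 to 0.17 for Epx, from -0.86 to 0.54 for Prg2 and from -1.08 to 0.24 for Prg3. Libraries of the antibody groups did not overlap for 2 of the 3 genes at stage I (Epx lower, Prg2 higher) and for 1 at stage II (Epx), beside 28.4% and 33.8% of all genes.

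At stage III anti-IL5 lowered 2 of the 3 genes, beside 5.05% of all genes called lower. Epx was 2.95-fold lower (log2 difference -1.56 ± 0.33, SE, edgeR adjusted p = 0.00652), from 13868 ± 1668 to 4696 ± 1407 CPM (SD, n = 3). Prg3 was 2.31-fold lower (-1.21 ± 0.26, adjusted p = 0.00734), from 3798 ± 802 to 1642 ± 383 CPM. Prg2 had a log2 difference of -0.58 ± 0.28 (adjusted p = 0.228). Stage III anti-IL5 replicate 3 was the lowest library for all 3 genes, and without it the adjusted p was 0.0572 for Epx and 0.0637 for Prg3. Without stage III isotype replicate 3, the highest library, Prg3 had an adjusted p of 0.0524.

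At stage IV anti-IL5 lowered Epx and Prg2, beside 0.864% of all genes called lower. Epx was 6.91-fold lower (log2 difference -2.79 ± 0.35, SE, edgeR adjusted p = 0.000175), from 389 ± 188 to 56.3 ± 29.2 CPM (SD, n = 3). Prg2 was 3.96-fold lower (-1.98 ± 0.29, adjusted p = 0.000576), from 1789 ± 517 to 452 ± 231 CPM. Prg3 was at 114 ± 21.8 CPM under isotype and 53.7 ± 27.5 CPM under anti-IL5, a log2 difference of -1.09 ± 0.27 that missed the threshold (adjusted p = 0.0503). By DESeq2 and by limma-voom the Prg3 difference passed (adjusted p = 0.00565 and 0.0138), and it also passed without anti-IL5 replicate 1 (-1.59, edgeR adjusted p = 0.00144). In a fit of the 6 stage IV libraries alone, the Epx and Prg2 differences kept their size (-2.78 and -1.97) but had edgeR adjusted p of 0.172 and 0.174. The groups did not overlap for any of the 3 genes at stages III and IV, beside 26% and 15.8% of all genes.

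**Figure D2:**
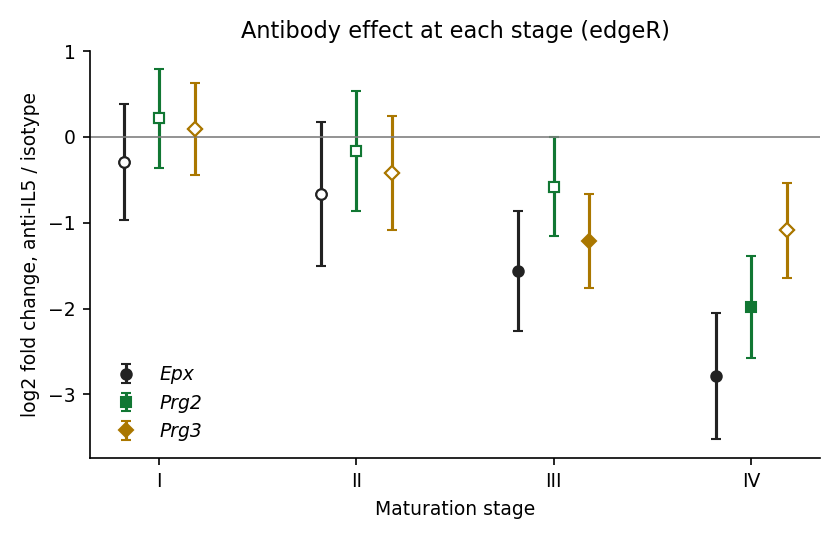
Log2 fold change between the antibody groups (anti-IL5 over isotype) by stage for Epx, Prg2 and Prg3, with 95% intervals from the edgeR fit. Filled symbols have an adjusted p under 0.05. The stage I values lie near 0, from -0.29 to 0.22, and the lowest value is that of Epx at stage IV, -2.79.

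Averaged over the 4 stages with equal weight, anti-IL5 lowered all 3 genes, beside 10.3% of all genes called lower: Epx by 1.33 ± 0.18, Prg3 by 0.66 ± 0.14 and Prg2 by 0.63 ± 0.15 on the log2 scale (SE, edgeR adjusted p = 2.61e-05, 0.00212 and 0.00453). The antibody effect differed among the stages for 2 of the 3 genes, where 1.07% of all genes were called: Epx (interaction adjusted p = 0.0298) and Prg2 (0.0251), with Prg3 at 0.190. Leaving out 1 library ended the Epx call in 10 of 22 fits and the Prg2 call in 5 of 22, as the closing section lists. Between stages I and IV, a pair added after the other results had been seen, the effect changed by -2.50 ± 0.47 on the log2 scale for Epx (SE, edgeR adjusted p = 0.00849) and by -2.20 ± 0.39 for Prg2 (0.00598). Both passed, beside 0.928% of all genes called, also in each fit that left out 1 library, whereas Prg3 had -1.18 ± 0.37 (0.179). For the other pairs of stages 0 of the 3 genes passed by edgeR, beside 0.638% of all genes called for stages III to IV, 0.396% for I to III, 0.0565% for II to IV (also added) and 0% for I to II and II to III. Between stages III and IV the effect changed by -1.23 ± 0.47 for Epx (adjusted p = 0.308), by -1.41 ± 0.39 for Prg2 (0.115) and by 0.12 ± 0.37 for Prg3 (0.977). Between stages I and III it changed by -1.27 ± 0.46 for Epx (0.280), by -0.79 ± 0.39 for Prg2 (0.509) and by -1.30 ± 0.37 for Prg3 (0.112). Between stages II and III the adjusted p was 0.970, 1.00 and 0.913 in that order of genes. Between stages II and IV it was 0.124 for Epx, 0.120 for Prg2 and 0.685 for Prg3. By DESeq2, 1 of the 3 passed for stages III to IV (Prg2), 1 for stages I to III (Prg3) and 2 for stages II to IV (Epx and Prg2). Without anti-IL5 stage IV replicate 1, Prg2 passed by edgeR for stages III to IV (-1.87, adjusted p = 0.0196), Prg3 for stages I to IV (-1.68, 0.00853), and Epx and Prg2 for stages II to IV (-2.58 and -2.29, 0.0424 and 0.0176).

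Ratios of 2 genes' counts within a library do not depend on its size or scaling, and they show the genes changing unequally. The count ratio of Epx to Prg2 fell with each stage, and it was lower under anti-IL5 in every stage: 0.992 ± 0.102 against 1.41 ± 0.0402 at stage I (SD, n = 3) and 0.431 ± 0.0893 against 0.868 ± 0.0453 at stage III. At stage II it was 0.705 ± 0.0544 against 1.01 ± 0.0389 (SD, n = 2), and at stage IV 0.124 ± 0.00638 against 0.212 ± 0.0668 (SD, n = 3). In all 4 stages each anti-IL5 library lay below every isotype library. Averaged over stages the ratio was 1.62-fold lower under anti-IL5 (exact permutation test within stages, two-sided, p = 4.17e-05, the smallest value that the 48000 regroupings allow, 6.25e-05 adjusted over the 3 ratios). Within a stage alone the smallest possible exact p is 0.1 with 3 libraries a group and 0.333 with 2.

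Relative to Prg3, Epx was also lower under anti-IL5. Under isotype the ratio of Epx to Prg3 did not fall with each stage. Its means there were 3.12 ± 0.260 at stage II (SD, n = 2) and 3.70 ± 0.382 at stage III (SD, n = 3). The ratio of Epx to Prg3 was 2.91 ± 0.232 under anti-IL5 and 3.80 ± 0.0450 under isotype at stage I, and 1.07 ± 0.350 and 3.29 ± 1.04 at stage IV (SD, n = 3). All anti-IL5 libraries again lay below all isotype libraries in each of the 4 stages, and the mean over stages was 1.59-fold lower (exact permutation p = 4.17e-05, again the smallest possible, 6.25e-05 adjusted). The ratio of Prg3 to Prg2 went from 0.370 ± 0.00651 at stage I to 0.0663 ± 0.0153 at stage IV under isotype. It was lower under anti-IL5 at stages I to III (0.151 ± 0.0164 against 0.236 ± 0.0245 at stage III) and higher at stage IV (0.123 ± 0.0337), without overlap in any stage. Over the 4 stages these opposed differences gave no shift that the test could separate from 0 (log2 -0.03, exact permutation p = 0.839).

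**Figure D3:**
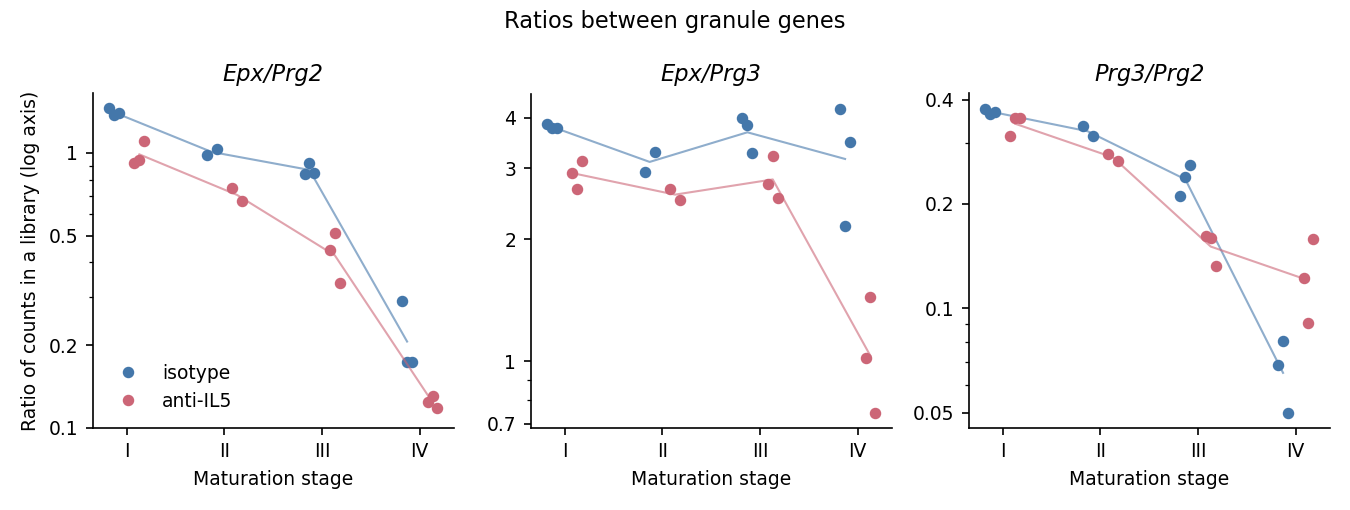
Ratios of counts within each library for Epx to Prg2, Epx to Prg3 and Prg3 to Prg2 by stage, on log axes, with points for libraries and lines through the geometric means. Anti-IL5 libraries sit below isotype libraries in each stage for the ratios of Epx, and above them at stage IV for the ratio of Prg3 to Prg2, at a mean of 0.123 against 0.0663.

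Where a library stood along maturation was read from the first principal component of all genes except these 3, which held 62.3% of the variance. Anti-IL5 libraries stood nearer to stage IV than isotype libraries at stage III (44.6 to 66.3 against 2.76 to 27.9), and also at stages I and II. At stage IV, the upper end of this component, the ranges overlapped (112 to 116 against 114 to 116). How finely the component separates libraries by maturation at that end was not tested. The part of position along maturation in the antibody differences was not tested at any stage.

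**Figure D4:**
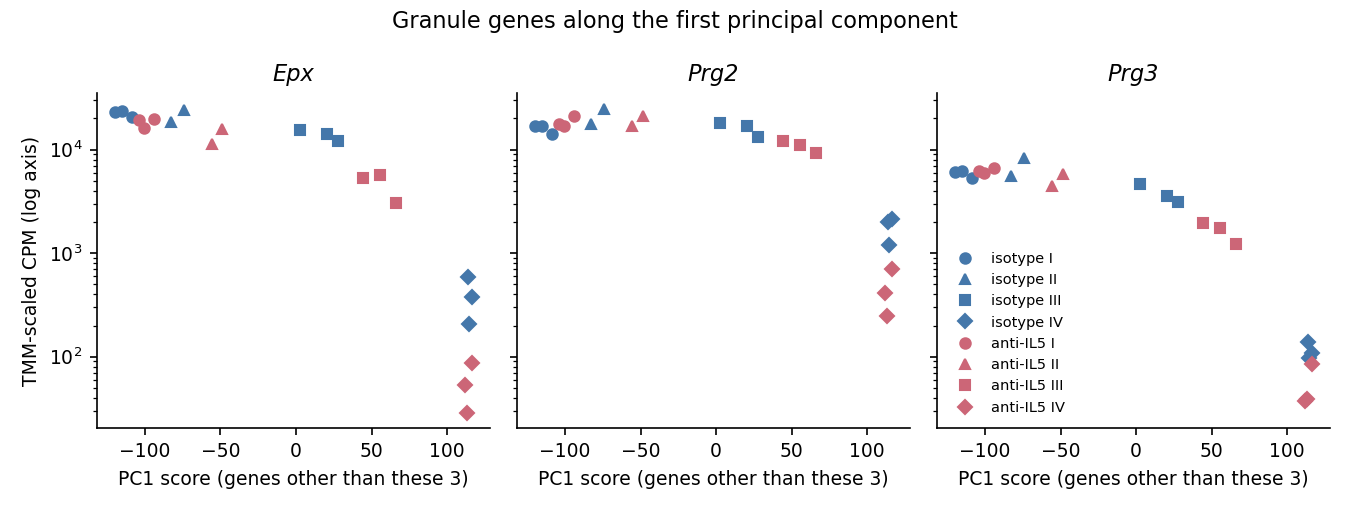
Level of each of the 3 genes (CPM, log axis) against the position of its library on the first principal component computed without them, with points for the 22 libraries coloured by antibody and shaped by stage. At stage IV the libraries of both antibodies lie between 112 and 116, and the anti-IL5 points have the lower levels. The part of position in these levels was not tested.

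Some sums of genes listed as markers of other cell types differed between the antibody groups, and others overlapped. At stage III the 8 basophil and mast cell markers, all detected, summed to 613 to 684 CPM under anti-IL5 and 1135 to 1727 CPM under isotype, with the histidine decarboxylase gene Hdc the most abundant, although Kit in that list went the other way (38.0 ± 8.53 against 15.2 ± 4.16 CPM, SD, n = 3). The 4 neutrophil primary granule markers, led by Mpo, summed there to 46.9 to 85.8 CPM under anti-IL5 and 5.07 to 32.4 CPM under isotype. The 5 T and NK cell markers summed at stage III to 27.0 to 30.4 CPM under anti-IL5 and 94.0 to 234 CPM under isotype. Most of each sum was Nkg7 alone, with means of 17.9 and 133 CPM. Cd3e and Gzma went the other way, being at 0 under isotype and detected under anti-IL5. At stage IV the basophil and mast cell markers summed to 174 to 187 CPM under anti-IL5 and 177 to 191 CPM under isotype. Of these markers Prss34 was at 0 in the isotype group. The 6 neutrophil secondary granule markers, all detected and led by Ngp, overlapped at stage III, with sums of 6455 to 7076 CPM under anti-IL5 and 4625 to 7329 CPM under isotype. The monocyte markers also overlapped at stage III (1564 to 1710 against 1691 to 2906 CPM). At stage IV the secondary granule markers summed to 426 to 1076 CPM under anti-IL5 and 216 to 318 CPM under isotype. The 4 megakaryocyte markers summed there to 95.2 to 136 and 145 to 164 CPM, nearly all of it Itga2b (means of 109 and 153 CPM). Itga2b was also among the 5 genes whose levels followed Epx most closely (r = 0.97). This sum is therefore a value of Itga2b and not a measure of megakaryocytes. The primary granule markers overlapped at stage IV (32.9 to 364 against 40.4 to 105 CPM), as did the 5 monocyte markers (941 to 1127 against 1034 to 2055 CPM). Of 7 erythroid markers the 4 globin genes were at 0 in every group. The part of these markers in the results was not tested.

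Other eosinophil granule proteins gave a mixed picture. Of 13 ribonuclease genes listed, the eosinophil-associated RNases that share the granule, 11 have rows in the files and 4 passed the filter on low counts. All 4 fell from stage III to stage IV in both antibody groups, as the 3 genes did. Of all genes, 18.8% were called lower in that step under isotype and 13.4% under anti-IL5. Ear1, the most abundant, went from 3278 ± 297.98 to 458 ± 102 CPM under isotype (SD, n = 3). At stage IV anti-IL5 lowered 1 of 4, beside 0.864% of all genes called lower. Ear6 stood at 3.79 ± 2.63 CPM against 21.9 ± 9.91 CPM (SD, n = 3, log2 difference -2.58 ± 0.33, edgeR adjusted p = 0.000175). Ear1 and Ear2 had log2 differences of -0.65 ± 0.31 (adjusted p = 0.529) and -0.33 ± 0.36 (0.918) there, and their libraries overlapped. The median over the 4 was -1.61, or -0.65 over the 3 left when Ear10, with 3 counts or fewer in each stage IV group, was set aside, beside 0 over all genes. Ear genes are close copies, so their reads may be split among them.

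Most of the listed enzymes of haem synthesis, the cofactor of Epx, fell with maturation. Of 7 tested, 5 fell from stage I to stage IV in each antibody group. Of all genes, 33.9% were called lower in that step under isotype and 32.8% under anti-IL5. The median log2 change of the 7 was -1.15 under isotype and -1.25 under anti-IL5, beside -0.04 and -0.06 over all genes. Among those that fell was Alad, the enzyme that makes porphobilinogen, from 71.5 ± 11.8 to 5.48 ± 1.65 CPM under isotype (SD, n = 3). At stage IV 0 of 7 were called between antibodies by edgeR, DESeq2 and limma-voom, with 2 at an unadjusted p under 0.05. Mpo, the peroxidase most like Epx and a neutrophil granule enzyme, fell early, from 3010 ± 735 CPM at stage I to 216 ± 22.01 at stage II (n = 2) and 13.1 ± 10.3 at stage III under isotype, and was not called between antibodies at any stage.

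Genes for entry into and folding in the endoplasmic reticulum, the route of all granule precursors, were in part lower under anti-IL5 at stages I to III. Of 29 tested, anti-IL5 lowered 14 at stage I, 15 at stage II and 13 at stage III and raised 0, where 1.82%, 1.19% and 5.05% of all genes were called lower, with median log2 differences of -0.65, -0.87 and -0.64 beside 0.02, 0.00 and -0.01 over all genes. Manf, a secreted folding stress protein, went at stage I from 629 ± 107 to 362 ± 15.8 CPM (log2 difference -0.80 ± 0.15, edgeR adjusted p = 0.00428). At stage IV edgeR called 0 of 29 (median -0.12), limma-voom called 0, DESeq2 called 1, and 4 had an unadjusted p under 0.05.

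Of 13 lineage regulators, anti-IL5 raised 3 and lowered 0 at stage I and raised 1 and lowered 1 at stage II. It raised 1 and lowered 2 at stage III, and raised 0 and lowered 2 at stage IV. Of all genes, 4.42% were called in either direction at stage I and 1.75% at stage II. At stages III and IV, 5.05% and 0.864% of all genes were called lower. In numbers, 547, 217, 789 and 130 of the 12387 genes tested were called at stages I, II, III and IV. Of these, 225, 147, 626 and 107 were lower and the rest higher. Id2, an inhibitor of helix-loop-helix factors, was higher at stage I (248 ± 51.8 against 34.2 ± 7.43 CPM, SD, n = 3, log2 difference 2.85 ± 0.18, edgeR adjusted p = 3.00e-09) and at stages II and III (1.56 ± 0.21 and 0.87 ± 0.17, adjusted p = 0.000362 and 0.00312). Its relative Id1 was higher at stage I (1.83 ± 0.27, adjusted p = 0.000366) and lower at stage IV (-1.45 ± 0.27, 0.00542), and Cebpd was higher at stage I (0.64 ± 0.18, 0.0454). Xbp1, a factor that drives secretory genes and is needed for eosinophil formation, was lower under anti-IL5 at stages II, III and IV (log2 differences -0.83 ± 0.16, -1.31 ± 0.14 and -1.46 ± 0.14, edgeR adjusted p = 0.0135, 6.00e-06 and 5.93e-06). At stage IV it read 125 ± 18.3 against 342 ± 16.2 CPM (SD, n = 3). Gata2 was lower at stage III (131 ± 33.9 against 377 ± 138 CPM, -1.53 ± 0.23, adjusted p = 0.000329). Gata1, the factor on which the eosinophil lineage depends, and Cebpe, needed for granule maturation, were not called between antibodies at any stage. Gata1 rose from stage I to stage IV (218 ± 42.9 to 452 ± 36.3 CPM under isotype, log2 1.05 ± 0.16, adjusted p = 5.07e-06) while the 3 granule genes fell.

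Of 17 genes for granule matrix, membrane and release, 11 rose and 4 fell from stage I to stage IV under isotype, and 11 rose and 3 fell under anti-IL5 (median log2 change 0.95 and 0.80, beside -0.04 and -0.06 over all genes). In that step 32.3% of all genes were called higher under isotype and 30.7% under anti-IL5, and 33.9% and 32.8% were called lower. At stage IV anti-IL5 lowered 1 of 17, beside 0.864% of all genes called lower. Cst7, the gene of a cystatin protease inhibitor, went from 115 ± 17.4 to 56.8 ± 6.73 CPM (-1.01 ± 0.15, edgeR adjusted p = 0.000671). The median over the 17 was 0.08 there, beside 0 over all genes.

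**Figure D5:**
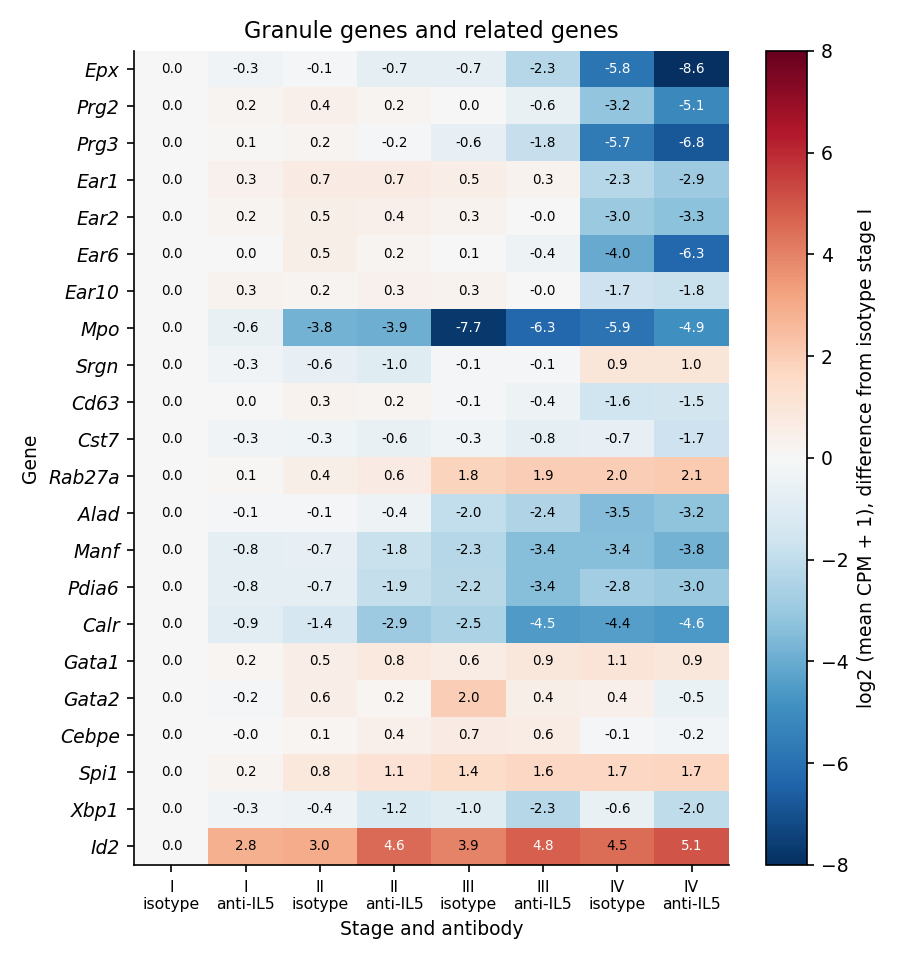
Level of the 3 genes and of related genes in each of the 8 groups, as log2 of the mean CPM plus 1 minus the same value in isotype stage I, drawn as a colour map with the value in each cell. In the anti-IL5 group of stage IV Epx stands at -8.61, Prg3 at -6.75 and Prg2 at -5.14, whereas Gata1 stands at 0.88.

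The genes whose levels followed each of the 3 most closely over the 22 libraries were picked among 8425 genes by Pearson correlation of log2 CPM. For Epx they were Ear6 (r = 0.98), Lgals1 (0.97), Serpinb1a (0.97), Itga2b (0.97) and Ripk3 (0.96). For Prg2 they were Ear6 (0.99), Ear1 (0.97), Lgals1 (0.97), Ear2 (0.97) and Mogat2 (0.97), and for Prg3 Ripk3 (0.98), Serpinb1a (0.98), Oaf (0.98), Nucb2 (0.98) and Slc30a2 (0.98). The 3 genes correlated with each other at 0.99 (Epx with Prg2), 0.99 (Epx with Prg3) and 0.98 (Prg2 with Prg3). The libraries fall into stages and share a depth and a scaling, so these values describe the shared fall at stage IV and carry no test. After the group means were taken away, the correlations within the set were 0.90, 0.81 and 0.82 in the same order, so that libraries of a group high in 1 of the genes tended to be high in the others. The nearest other gene on that measure was Hacd1 for Epx (0.85), Mogat2 for Prg2 (0.86) and Ube2t for Prg3 (0.87).

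The antibody differences of these neighbours in pattern are a description with no test, since the same libraries chose them. Lgals1, the galectin-1 gene, had log2 differences of -0.87 ± 0.18 at stage III and -0.91 ± 0.19 at stage IV (SE), where it read 70.2 ± 15.4 CPM under anti-IL5 and 132 ± 15.1 CPM under isotype (SD, n = 3). Ripk3 and Serpinb1a, a necroptosis kinase gene and a protease inhibitor gene, had log2 antibody differences of -0.17 ± 0.27 and -0.40 ± 0.22 at stage IV.

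Genes next to the 3 on the chromosome were also read. Slc43a3, a solute carrier gene 3 places before Prg3 and next to Prg2, fell from 256 CPM at stage I to 3.50 CPM at stage IV under isotype (log2 -6.19 ± 0.35, edgeR adjusted p = 2.56e-12). P2rx3, the ATP receptor gene that follows Prg3, fell from 120.0 to 1.29 CPM (-6.51 ± 0.45, adjusted p = 5.98e-11). From stage III to stage IV under isotype, Mks1, the gene next to Epx, had a log2 change of -0.14 ± 0.21 (adjusted p = 0.656), after -2.10 ± 0.21 over stages I to IV, and Ssrp1, the gene after P2rx3, had 0.12 ± 0.17 (0.629), with 288 CPM at stage I and 144 CPM at stage IV. Anti-IL5 lowered Slc43a3 at stage III (-1.70 ± 0.28, adjusted p = 0.000883), and neither gene was called at stage IV, where Slc43a3 stood at 3.29 CPM and P2rx3 at 0.802 CPM under anti-IL5. On the side of Epx that holds the other peroxidase genes, Lpo did not pass the filter on low counts, and of the 3 olfactory receptor genes on its other side 0 passed.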

How the data were processed

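Bulk RNA-seq was made from sorted bone marrow eosinophils with SMART-Seq v4, a full-length kit of 17 cycles that does not mark strand, and Nextera XT, per the labels' protocols. The deposited values are raw counts per gene symbol, made with STAR 2.6.1a on build mm10 per the submitters' processing notes, which also name DESeq2. For the counter, its annotation and its strand option: not given in the sources used here. Reads outside genes (12.7% to 22.1% of counts) and ambiguous reads (1.86% to 2.39%) stayed out.

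Computed here: all 22 libraries were fitted with edgeR 4.0.16 in R 4.3.3 (quasi-likelihood test, robust, TMM, filterByExpr, 8 groups), with 12387 genes tested and Benjamini-Hochberg adjusted p under 0.05 as the call. The median biological coefficient of variation was 22.7%. Alternatives were DESeq2 1.42.0, limma-voom (limma 3.58.1), other scalings, no filter, fits of the compared groups alone, replicate blocks and leaving out each library. Ratios used counts plus 0.5. Likeness and the principal component used log2 CPM with a prior count of 2, likeness above a mean of 10 CPM. The fit was tested on simulated data. A search for copied libraries found none. The members, gene lists and named genes (the up to 4 called list members of smallest adjusted p, a few fixed names, the 5 most correlated genes and the 3 neighbours on each side) were chosen with earlier results of these data known. A gene of the haem synthesis list is not reported here, and the list's counts leave it out. Epx and Prg3 promoter sequences came from RefSeq. Intervals from the fit are at the 95% level, and with PCR reads that carry no molecular identifiers the smallest count of 3 taken as detected covers counting error only (0.203 to 0.419 CPM per library).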

Additional observations from a re-analysis of the deposited data

Results flagged for a closer look

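The antibody effect differed among the 4 stages for Epx (edgeR interaction adjusted p = 0.0298) and for Prg2 (0.0251), by a test of the difference itself. For Epx the log2 difference of anti-IL5 against isotype was -0.29 at stage I and -2.79 at stage IV, and for Prg2 it was 0.22 and -1.98. The change between these stages had an edgeR adjusted p of 0.00849 and 0.00598.

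The log2 ratio of Prg3 to Prg2 within a library moved in opposite directions between stages. Anti-IL5 minus isotype was -0.12 at stage I, -0.25 at stage II and -0.64 at stage III, with every anti-IL5 library lower, and 0.89 at stage IV, with every anti-IL5 library higher. The difference between the stages was not tested.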

How the results depend on the processing

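Of 504 values of the 3 genes and their ratios under other settings, 480 kept direction and side of the threshold, as did 553 of 594 with 1 library left out; where another result is given, the cause was not tested. Fits of the 2 compared groups alone ended the stage IV calls of Epx (-2.78, adjusted p = 0.172) and Prg2 (-1.97, 0.174). The Prg3 difference at stage IV passed with plain totals (-1.12, adjusted p = 0.0327), totals without the 3 genes (-1.12, 0.0343), a replicate block shared by all groups (-1.13, 0.0134), limma-voom (-1.22, 0.0138) and DESeq2 (-1.08, 0.00565). Prg2 passed for stage IV minus III with a replicate block within antibody (-1.48, 0.0204) and DESeq2 (-1.40, 0.0279), and Prg3 for stage III minus I with that block (-1.31, 0.0331), limma-voom (-1.31, 0.0416) and DESeq2 (-1.28, 0.0379). For stage IV minus I Prg3 passed with the block within antibody (-1.25, 0.0413); for stage IV minus II Epx passed with DESeq2 (-2.14, 0.0106), and Prg2 with that block (-1.63, 0.0488) and DESeq2 (-1.84, 0.00996). Prg3 for stage IV minus III turned to -0.00092 with limma-voom. Prg2 from stage I to II under anti-IL5 turned from 0.03 to -0.14 with plain totals, -0.15 with totals without the 3 genes and -0.15 with the block within antibody. The interaction had an adjusted p of 0.0807 for Epx with no filter, and for Prg3 of 0.04996 with the block within antibody, 0.0334 with limma-voom and 0.0492 with DESeq2. Plain totals and totals without the 3 genes moved the median of all genes by up to 0.42 and 0.49 (stage IV against I, anti-IL5), and the size factors of DESeq2 in edgeR by up to 0.10.

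Leaving out 1 library gave log2 ranges at stage III of -1.72 to -1.33 for Epx and -1.35 to -1.03 for Prg3, at stage IV of -1.59 to -0.88 for Prg3 and at stage II of -0.38 to 0.14 for Prg2. The ranges were -0.30 to 0.12 (Epx) and -0.10 to 0.49 (Prg3) from stage I to II under isotype, -0.13 to 0.19 (Prg2) for that step under anti-IL5, -1.13 to -0.52 (Prg3) from stage II to III under isotype and -0.97 to -0.65 (Prg2) under anti-IL5. Stage IV minus III ranged from -1.87 to -1.11 for Prg2 (passing without anti-IL5 stage IV replicate 1) and from -0.38 to 0.33 for Prg3, stage IV minus I from -1.68 to -0.97 for Prg3, stage IV minus II from -2.58 to -1.71 for Epx and from -2.29 to -1.53 for Prg2, and the mean Prg3 to Prg2 ratio from -0.0806 to 0.0196. The interaction's adjusted p ranged from 0.00991 to 0.0781 (Epx), 0.00264 to 0.0753 (Prg2) and 0.0202 to 0.342 (Prg3). The Epx call ended without any 1 of the 6 stage I libraries (0.0541 to 0.0650), without isotype stage IV replicate 1 (0.0686) or 3 (0.0527) or without anti-IL5 stage IV replicate 2 (0.0781) or 3 (0.0628). The Prg2 call ended without isotype stage I replicate 2 (0.0518), isotype stage IV replicate 1 (0.0546) or 3 (0.0642), anti-IL5 stage I replicate 1 (0.0526) or stage IV replicate 2 (0.0753), and Prg3 passed without anti-IL5 stage IV replicate 1 (0.0202). A lone stage II library is assumed to vary like the other groups.

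Genes called at stages I, II, III and IV numbered 547, 217, 789 and 130, with ranges over other settings of 463 to 1123, 1 to 472, 496 to 1296 and 130 to 256. With 1 library left out they were 0.336 to 0.850, 0.175 to 1.98, 0.390 to 1.07 and 0.523 to 0.892 times as many. Same-numbered libraries of 1 stage correlated at 0.0127 to 0.338 in their deviations, over 0.1 in 2 of 11 pairs. Same-numbered libraries of 1 antibody correlated across stages at 0.0229 to 0.208, over 0.1 in 16 of 30 pairs, against 2 of 60 for other numbers. The mean was 0.105 for these same-numbered pairs and -0.0525 for other numbers. Between antibodies within a stage the means were 0.0983 and -0.054. The rule for taking the numbers as pairs needed every pair over 0.1, so they were not taken as pairs. That rule is no test of pairing, and the main fit treats all libraries as independent. Fits with a replicate block are among the other settings above.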
